A study of Rattus norvegicus with 6 samples.

Results

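The 143 hairpins described here are predicted microRNA precursors on which most of the reads did not match the hairpin exactly. They were chosen among 512 distinct hairpin sequences that the deposited tables mark as predictions of the authors, by having less than 50% of their counts, pooled over 6 libraries, in sequences listed without a mismatch. The remaining 369 predicted hairpins were mostly exact, and 264 annotated hairpins brought the total to 776. The small RNA libraries came from RSC96, an established line of rat Schwann cells (the glia of peripheral nerves), kept for 48 h in high glucose (3 libraries) or in low glucose, the control (3 libraries). The title of the series concerns exosomes, but no label states whether vesicles or cells were extracted. Retinas are named in the extraction protocol, although the tissue is given as nerve. Neither the glucose concentrations nor the number of separate cultures is given in the sources used here.

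A microRNA is cut from a folded precursor by Drosha and Dicer, so that most of its reads begin at a sharply defined base and share a length close to that of a Dicer product. Small RNA libraries also hold pieces of ribosomal RNA, transfer RNA (tRNA), small nucleolar RNA and transcribed repeats. These RNAs have many diverged copies in a mammalian genome, and a piece of one copy can align to another copy with a mismatch. Bases added after transcription, such as a 3′ A or U tail on a microRNA or the CCA end of a tRNA, also give mismatches, at the end of the read.

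The sequences below are the most abundant listed sequence, or tag, of some of the members that carried most counts or changed most between the groups. They are shown with the mismatched base in capitals. In all but chr17_16803, which took 2 kinds of tags, that base was carried by nearly all counts covering its place in the hairpin. A code such as T2C gives the hairpin base, the position counted from 1 at the 5′ end of the tag, and the tag base. In the account of fixed places further below, the position is instead counted from the 5′ end of the hairpin, so the same mismatch can have another number there.
chr5_29402 (T2C): cCgggtgctgtaggcttt
chr15_14730 (A16T): gtgtgcttggaataaTa
chr17_16803 (A12G): gttcgatccccGgcatctcca
chr4_27712 (T5C): agctCgcttgatcttgat
chr13_11530 (T17C): cggccctggcggagcgC
chr8_36303 (C15G): ctgactggctcagcGt
chr9_40245 (A4G): ctcGgtgggacctcca
chr15_13918 (G15A): gttccttcttcttgAcca
chr15_14491 (G15A): tggtctgtgatgaaAccc
The names give the chromosome and the authors' running number. The genome build is not stated in the labels or files, so coordinates are left out.

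The letters of several of these tags are known from general knowledge of rat RNAs, which no file used here could check. Those of chr5_29402 are the 3′ end of the smallest ribosomal RNA, the one transcribed by RNA polymerase III. Those of chr13_11530 and chr8_36303 belong to the RNA of the small ribosomal subunit, and those of chr4_27712 to the long RNA of the large subunit. The tag of chr17_16803 has the letters of the 3′ part of an alanine tRNA, and that of chr9_40245 the 3′ end of a glutamine tRNA with its CCA. For chr15_14730 and chr15_14491 no source is named here, and chr15_13918 is described only by its CCA end. The source of each tag was not tested.

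The 143 hairpins held 184643 of the 229117 counts on predicted hairpins. A pair of them, chr5_29402 with 75904 counts and chr7_34122 with 66246, made up 77.0% of the members' counts, and the 7 most abundant made up 92.9%. The typical member was rare, with a median of 20 counts over all libraries, and 65 members had fewer than 20. No exact read was listed for 79 members. Exact reads were 13.6% of the members' counts, 77.0% on the mostly exact predicted hairpins and 87.3% on the annotated ones. The share of exact reads chose the members, and these values are a description of that choice. Just under the threshold lay chr2_20641, with 48.5% of 301 counts exact, and chr14_12654, with 46.1% of 228. The exact share of chr2_20641 was 45.5%, 39.6% and 43.4% in the high glucose libraries. In the low glucose libraries, which had fewer counts, it was 80.0%, 69.2% and 84.4%. Just above the threshold lay chr8_36384, with 50.2% of 1208 counts exact, and chr7_34207, with 51.9% of 54.

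The libraries differed in depth with the treatment. Total counts were 963706, 1278405 and 1354456 in high glucose but 123716, 148143 and 114615 in low glucose, 9.31-fold apart on average. Listed sequences had at least 2 reads. Of the 143 members, 92 were listed only in high glucose, 2 only in low glucose and 49 in both. Listed only in high glucose were also 304 of the 369 mostly exact predicted hairpins and 62 of the 264 annotated hairpins. Each high glucose library listed 87, 94 or 98 members and each low glucose library 45, 40 or 36. After thinning to 114615 counts the high glucose libraries still listed 57, 55 and 54 members and the low glucose libraries 45, 39 and 36. Erythroid microRNAs (miR-451, miR-144 and miR-486) summed to 747 to 892 CPM (counts scaled to library size, here with edgeR's trimmed mean of M values, TMM) in high glucose and 3344 to 6431 in low glucose, with 2 of 2 tested hairpins lower in high glucose. Neuronal microRNAs summed to 16731 to 22446 CPM in high and 7633 to 9331 in low glucose, with miR-124 not listed, and of 9 tested hairpins 4 were higher and 2 lower. Liver microRNAs summed to 9214 to 14094 and 3289 to 4719, with 2 of 2 tested higher. Leukocyte microRNAs summed to 1439 to 1841 against 2161 to 2225 CPM, retinal ones to 54.6 to 116 against 69.0 to 135 with miR-96 not listed, and muscle ones to 44.1 to 103 against 0 to 41.4 with miR-133 not listed. Of the microRNAs linked to Schwann cells and nerve, miR-138 and miR-338 were not listed, and the rest summed to 197202 to 288718 CPM in high and 424075 to 499801 in low glucose, although of 14 tested hairpins 6 were higher and 2 lower in high glucose. The part of depth and of these markers in the results below was not tested.

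By the place of the mismatch in the tag the members fell into 2 large kinds and some smaller ones. In 81 members at least 50% of the mismatched counts lay in the last 2 nt of the tag, in 50 they lay inside the tag, in 10 in the first 2 nt, and 2 members were mixed. The end-mismatched members were many and mostly rare. They held 7.49% of the members' counts, with a median of 16 counts, 48 of them rested on 1 listed tag, and 69 were listed only in high glucose. Of their 13826 counts 11051 were on chr15_14730, so the 7.49% rested mainly on that hairpin. Its mismatch stayed at place 85 of the hairpin, in 9 tags with 3 different ends. The main tags of the 81 members were mostly as long as a microRNA, 20 to 24 nt in 72 of 81. In 46 of the 81 the main mismatched base was T, in 30 it was A, in 4 G and in 1 C. The other 62 members held 92.5% of the counts, with a median of 95.5 counts, and 27 of them had main tags of 16 to 19 nt.

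**Figure D1:**
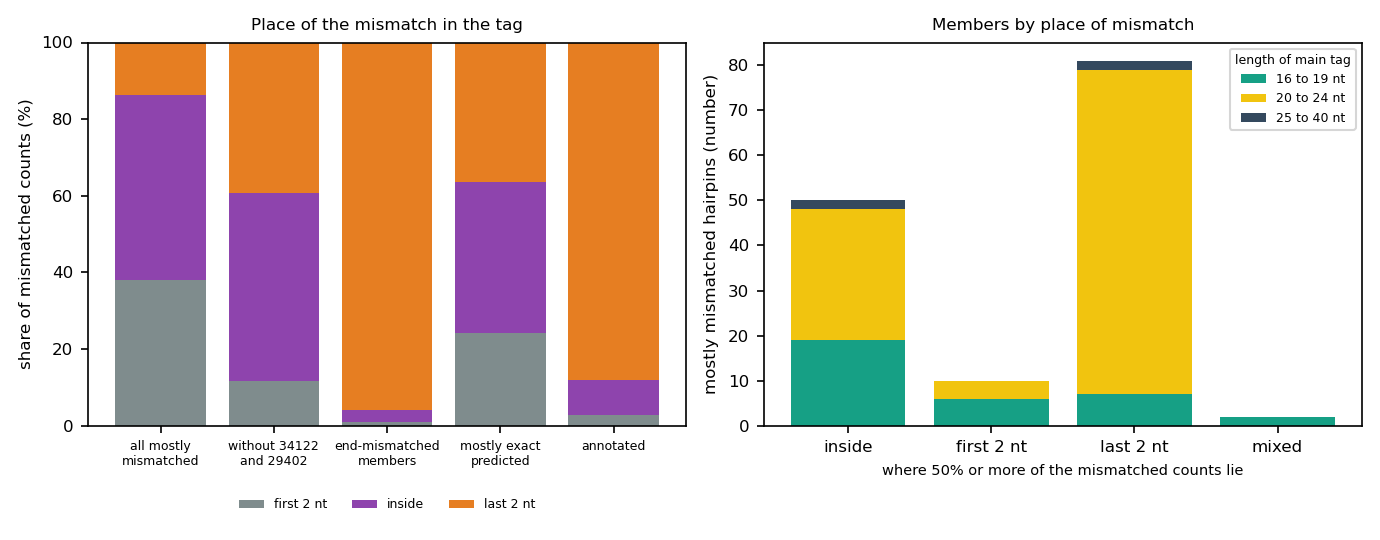
Left, share of mismatched counts (%) with the mismatch in the first 2 nt, inside or in the last 2 nt of the tag, pooled over the 6 libraries, for all mostly mismatched hairpins, the same without chr7_34122 and chr5_29402, the end-mismatched members, mostly exact predicted hairpins and annotated hairpins. Most counts of the end-mismatched members were on chr15_14730. Right, number of mostly mismatched hairpins by place of the mismatch, coloured by the length of the main tag; the 81 end-mismatched members had mostly 20 to 24 nt main tags.

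Weighted by counts, the mismatches of the members lay elsewhere than those of annotated microRNAs. Of the members' mismatched counts 37.9% had the mismatch in the first 2 nt, 48.3% inside and 13.8% in the last 2 nt. On annotated hairpins the shares were 2.91%, 8.97% and 88.1%. Without chr7_34122 and chr5_29402 the members' shares were 11.8%, 49.1% and 39.2%, so the share at the start rested on that pair. The members were chosen by mismatches, and these shares carry no test.

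In many members the mismatch stayed at 1 place of the hairpin while the ends of the tags varied. A fixed place was counted where at least 90% of 20 or more covering counts carried the same other base. Of the 78 members with 20 or more counts, 45 (57.7%) had such a place, and in 34 of these a fixed place was not the last place of the tags. Among mostly exact predicted hairpins with as many counts, 11 of 132 (8.33%) had one. Since most covering reads must mismatch at such a place, the rule itself favours it, and the difference was not tested.

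In chr7_34122 the place was 60, counted from 1 at the 5′ end of the hairpin. There 1 other base was carried by 99.6% of 63006 covering counts, in 171 different tags with 13 starts and 21 ends. The hairpin is 85 nt long. Almost all exact counts of this hairpin, 99.9%, were on tags that did not cover place 60. The exact reads were thus reads that could not show the difference.

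The same held for chr5_29402, where T2C was carried by 99.8% of 51446 covering counts. Its most abundant tags began at places 1, 2 and 3 and shared their 3′ end. The first and second carried the C, and the third began after it and was listed as exact:
chr5_29402 start 1: cCgggtgctgtaggcttt
chr5_29402 start 2: Cgggtgctgtaggcttt
chr5_29402 start 3: gggtgctgtaggcttt
These held 23917, 20341 and 16661 counts. Of the exact counts, 99.5% did not cover place 2. At place 19, the next base after these tags, G19T was carried by 97.6% of 5796 covering counts, at the last base of the tags.

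The member with the most fixed places was chr4_27712. Along its 88 nt 5 were found, T5C in 2054 counts, G20T in 326, A28G in 429, A39G in 27 and T54C in 1178, each carried by 100% of the covering counts. The tags therefore differed from the hairpin at every one of these places, although a listed tag could carry at most 1 mismatch. Its tags came from several stretches of the hairpin:
chr4_27712 start 1: agctCgcttgatcttgat
chr4_27712 start 22: cagtacGaatacagacc
chr4_27712 start 56: cgatccttctgacctt

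Other members followed the same pattern with fewer counts. In chr13_11530, G40A was carried by 99.6% of 571 covering counts and T57C by 98.2% of 442, the latter always at the last base of the tags and of the hairpin. In chr15_14730, A85T was carried by 97.7% of 10971 covering counts. In chr8_36303 it was C41G in 99.8% of 966, in chr9_40245 A5G in 100% of 691, and in chr18_18152 G57A in 100% of 654. The hairpin chr17_16803 took 2 kinds of tRNA-like tags, shown for their different mismatches:
chr17_16803 (A12G): gttcgatccccGgcatctcc
chr17_16803 (T16C): gttcgatccccagcaCctcc
They held 1459 and 691 counts.

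Tags of different members also overlapped each other. A tag of chr4_27057 shared its last 11 letters with the start of the main tag of chr8_36303, and the main tag of chr1_674 shared 15 letters with that of chr5_29402. No genome was used to place these tags.

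Runs of at least 12 shared letters joined 44 members into 14 groups. The largest group held 14 members around a tag that also occurred in 40 of 33469 RefSeq promoter windows of 300 nt (0.120%). Its letters are those of the rodent identifier repeat and of the neuronal RNA BC1, from general knowledge and not from a file used here:
chr10_7802: aggggttggggatttagctcagt
chr11_8278 (G1A): Agggttggggatttagctcagt
In 11 of the 14 more than 50% of the counts were on tags listed under other hairpins too, so these members are not independent and their levels are uncertain. chr12_10397, chrX_41008 and chrY_KL568149v1_random_42234 shared the same main tag with 95 counts in each.

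The member chr4_26450 carried tags made of TG repeats. Its main tag has the letters of miR-574-5p, a microRNA not found in the RefSeq table used here:
chr4_26450 (T17A): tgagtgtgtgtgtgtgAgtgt
The tag was listed at several places of this repetitive hairpin, at some as T17A and at others as T3A, with 349 counts at each of the places listed first, among which the deposited table divides the reads of the tag. Main tags were compared with stretches of microRNA hairpins, both those annotated in the deposited data and those in RefSeq. Only 3 members had a match within 1 mismatch, and these had 5 counts (chrX_41480, miR-450a), 4 (chr1_677, miR-423) and 2 (chr16_15278, miR-486). None was an exact match, whereas 38 of the 369 mostly exact hairpins had a match within 1 mismatch.

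The tags of the members were shorter than those on annotated hairpins, as were those of the other predicted hairpins. Of their counts 62.2% were on tags of 16 to 19 nt, 21.8% on 20 to 24 nt and 16% on 25 to 40 nt. On mostly exact predicted hairpins the shares were 51.8%, 45.8% and 2.39%, and on annotated hairpins 3.74%, 94.7% and 1.61%. The tags had 53.1% G and C, against 52.7% on mostly exact and 44.6% on annotated hairpins, and 8.30% of the counts began with T, the base with which 75.5% of the annotated counts began. The main tag lay at an end of the hairpin in 128 of 143 members, in 357 of 369 mostly exact predicted hairpins and in 2 of 264 annotated hairpins. Folded with RNAfold, the members had a median free energy of -0.41 kcal/mol per nt, mostly exact predicted hairpins -0.39 and annotated hairpins -0.44.

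The glucose groups stood apart in tag length, in opposite directions with and without the dominant pair. Tags of 16 to 19 nt held 75.3%, 68.4% and 61.6% of the members' counts in the high glucose libraries and 32.8%, 31.7% and 38.1% in the low glucose libraries. Tags of 25 to 40 nt held 9.76%, 8.26% and 11.5% against 43.3%, 44.6% and 35.9%. Without chr7_34122 and chr5_29402 the 16 to 19 nt share was 66.5%, 54.5% and 46.4% in high and 77.4%, 79.5% and 81.1% in low glucose. The groups did not overlap in any of these 3 measures. Each reached p = 0.1 in an exact two-sided permutation test of 3 against 3 libraries (adjusted p = 0.127 over 14 such tests), and 0.1 is the smallest p that this design allows. Without the pair the 25 to 40 nt share was 2.64% ± 0.55 in high and 2.17% ± 0.64 in low glucose (SD, n = 3; exact p = 0.5, adjusted 0.538). Hairpins of the other classes also differed in length between the libraries. Annotated hairpins had 3.99% ± 0.70 of their counts at 16 to 19 nt in high and 1.38% ± 0.04 in low glucose, and 1.79% ± 0.55 against 0.409% ± 0.049 at 25 to 40 nt (SD, n = 3; exact permutation p = 0.1, adjusted 0.127, for both). On mostly exact predicted hairpins the 16 to 19 nt share was 56.8%, 55.6% and 47.8% in high and 23.7%, 22.2% and 36.9% in low glucose, which was not tested.

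**Figure D2:**
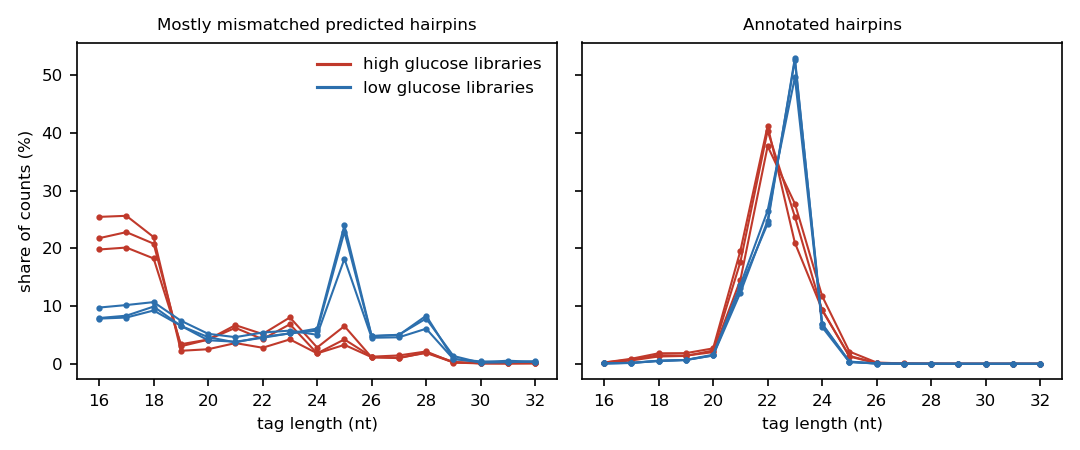
Share of counts (%) by tag length (nt, up to 32) in each library, red for high and blue for low glucose, on the mostly mismatched predicted hairpins (left) and on annotated hairpins (right). Low glucose libraries peaked at 25 nt and high glucose libraries at 16 to 18 nt on the left, while all libraries peaked at 22 or 23 nt on the right.

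Together the members took a larger share of the low glucose libraries, and this rested on 1 hairpin. They held 5.47%, 4.74% and 2.47% of all hairpin counts in the high glucose libraries and 9.33%, 8.59% and 11.8% in the low glucose libraries (exact two-sided permutation p = 0.1, adjusted 0.127). Without chr7_34122 the shares were 4.26%, 3.61% and 1.81% against 1.64%, 1.42% and 2.23%, and the groups overlapped (exact p = 0.2, adjusted 0.233). Without chr5_29402 as well they were 1.18%, 1.29% and 0.771% against 1.08%, 0.960% and 1.28% (exact p = 1).

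Of the 143 members 41 had enough counts for edgeR's quasi-likelihood test, and these held all but 1.33% of the members' counts. At an adjusted p under 0.05, 13 were higher in high glucose (31.7%) and 12 lower (29.3%), and 16 did not pass. Over all 272 tested hairpins 36.4% were higher and 26.1% lower, 62.5% in either direction, against 61.0% of the members, so the members were called about as often as hairpins in general. Mostly exact predicted hairpins were called in 59.6% of 52 tested, 51.9% higher and 7.69% lower, and annotated hairpins in 63.7% of 179, 33% higher and 30.7% lower; these differences between classes were not tested. The log2 fold changes of the tested members had a median of -0.01, against 0.39 over all tested hairpins. Groups did not overlap in 17 members higher and 14 lower in high glucose, where all tested hairpins gave 43.4% and 29.4%. The mostly exact predicted hairpins gave 61.5% and 9.62%, and the annotated ones 38.5% and 34.1%. Of the 102 untested members 73 were end-mismatched, and of the 8 end-mismatched ones tested 3 were higher and 1 lower. In bulk RNA a change in the cells and a change in how much of a fragment each cell holds or sheds cannot be told apart.

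**Figure D3:**
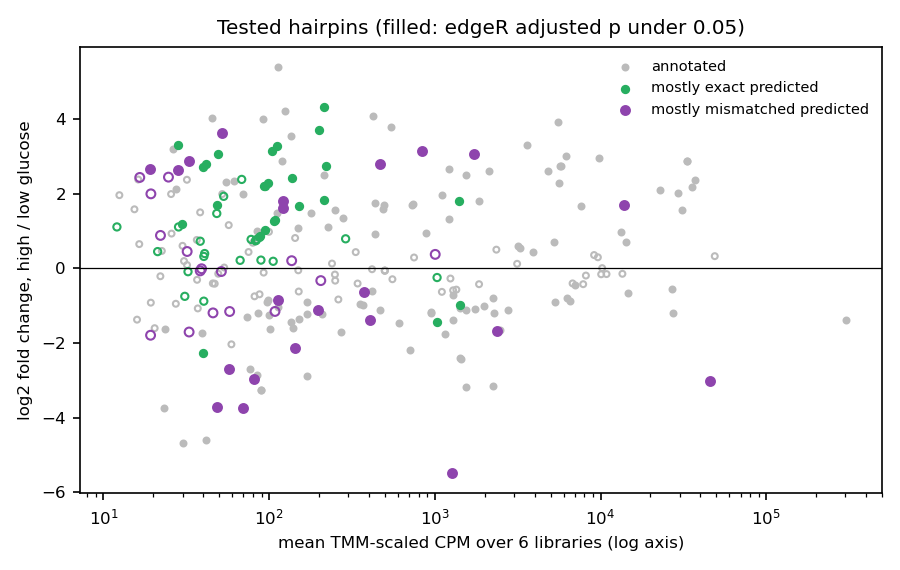
Log2 fold change, high over low glucose, against mean TMM-scaled CPM over the 6 libraries (log axis) for 261 of 272 tested hairpins; 11 listed at 0 in a group are not drawn. Filled points passed an adjusted p of 0.05; the mostly mismatched hairpins (purple) lie on both sides of 0, with chr7_34122 the most abundant of them.

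The abundant chr7_34122 and 3 fragments with letters of the long ribosomal RNAs were lower in high glucose. chr7_34122 reached 12091, 10643 and 7237 CPM in the high glucose libraries and 71114, 73281 and 99217 in the low glucose libraries. The groups were far apart, 8.13-fold lower in high glucose (log2 fold change -3.02, SE 0.24, edgeR adjusted p = 6.09e-05). Its raw counts were alike, however, at 11653, 14414 and 9023 in high and 9512, 10628 and 11016 in low glucose. The fall in CPM was thus close to the 9.31-fold difference in depth, and the part of depth in it was not tested. chr13_11530, with letters of the small subunit RNA, stood at 65.4, 48.0 and 53.7 CPM against 2243, 2351 and 2873. It was 44.7-fold lower (-5.48, SE 0.22, adjusted p = 4.32e-06), the largest fall among the named members. chr4_27712, with letters of the large subunit RNA, had 2159, 667 and 595 CPM against 3252, 3268 and 4368. The first high glucose library was closest to the low glucose group, and the fall was 3.18-fold (-1.67, SE 0.50, adjusted p = 0.0206; 0.056 without the third low glucose library). chr8_36303 had 427, 140 and 111 CPM against 531, 558 and 666 (-1.38, SE 0.51, adjusted p = 0.0469). That call was lost in 6 alternatives, among them a scaling on annotated hairpins only (adjusted p = 0.10). The overlapping member chr4_27057 was too rare to test.

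Tags with letters of the smallest ribosomal RNA were higher in high glucose. chr5_29402 had 30859, 21912 and 11252 CPM in the high glucose libraries and 5181, 4702 and 9745 in the low glucose libraries. The third library of each group lay close to the other, and the rise was 3.27-fold (log2 fold change 1.71, SE 0.42, edgeR adjusted p = 0.00936). chr1_674, whose main tag shares 15 letters with it, had 240, 188 and 120 CPM against 59.8, 62.1 and 54.0 (1.63, SE 0.36, adjusted p = 0.00597).

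**Figure D4:**
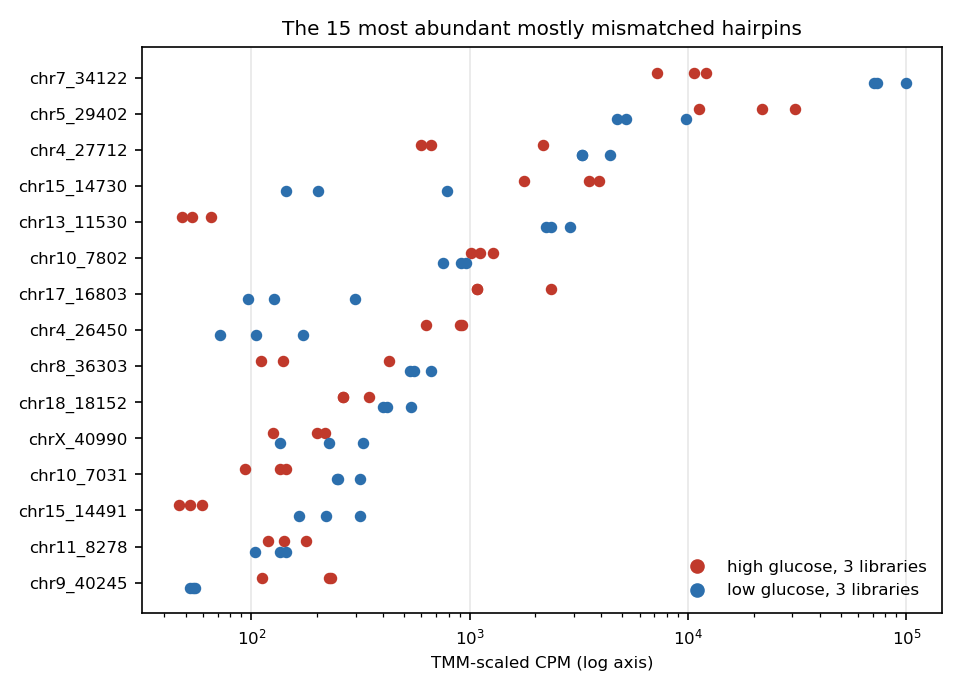
TMM-scaled CPM (log axis) of the 15 most abundant mostly mismatched hairpins in each of 3 high glucose (red) and 3 low glucose (blue) libraries, ordered by mean level. chr7_34122 and chr13_11530 lie far to the right in low glucose, and chr5_29402, chr15_14730, chr17_16803 and chr4_26450 lie to the right in high glucose.

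Of 4 named members whose main tag has tRNA letters or a CCA end, 3 were higher in high glucose and 1 did not pass. Over all tested hairpins 36.4% were higher. Since chr15_13918 was named only for its rise, and unnamed members are not counted, this count is no result about such tags. chr17_16803, with the 3′ part of an alanine tRNA, had 1078, 2362 and 1082 CPM in high and 127, 96.5 and 297 in low glucose. All high glucose libraries were above all low glucose libraries, 8.91-fold on average (3.16, SE 0.50, adjusted p = 0.0014). chr9_40245, with the glutamine tRNA end, had 232, 226 and 112 CPM against 52.3, 55.2 and 54.0 (1.82, SE 0.39, adjusted p = 0.00545). 94.5% of its counts were on tags listed under other hairpins too. chr15_13918, whose tags end in CCA, had 113, 62.0 and 35.3 CPM in high glucose and was listed at 0 in all low glucose libraries, where its mean high glucose level would give 7.79 to 10.2 reads. chr2_20641, with the letters of the 3′ part of a glycine tRNA, had 45.7, 110 and 42.5 CPM against 74.8, 89.6 and 288. These groups overlapped and it did not pass (-1.15, SE 0.62, adjusted p = 0.135; 0.0346 without the second high glucose library).

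Among the other members chr15_14730 and chr4_26450 rose most at high abundance. chr15_14730 had 3524, 3916 and 1777 CPM against 202, 145 and 784, an 8.37-fold rise (3.06, SE 0.63, adjusted p = 0.00451; 0.0932 with no filter on low counts). Here too the third library of each group lay nearest to the other group. chr4_26450, the hairpin with the letters of miR-574-5p, had 631, 907 and 926 CPM against 105, 172 and 72.1, a 6.92-fold rise (2.79, SE 0.33, adjusted p = 0.000366).

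The members of the repeat group differed in what could be measured. The 14 members summed to 1465, 1850 and 1640 CPM in high and 1219, 979 and 1162 CPM in low glucose. Of the 7 tested 3 were higher and none lower. chr10_7802, by far the most abundant, had 1010, 1280 and 1116 CPM against 912, 752 and 964. Its groups did not overlap, but it did not pass (0.38, SE 0.18, adjusted p = 0.0977; 0.0141 with scaling on annotated hairpins only, 0.029 on its most abundant sequence only and 0.0329 without shared sequences). chr11_8278 had 119, 178 and 141 CPM against 135, 103 and 144, which overlapped (0.21, SE 0.27, adjusted p = 0.538), and its sign turned under 3 alternatives. The 3 called members chr12_10397, chrX_41008 and chrY_KL568149v1_random_42234 rested on 3 low glucose counts in each. All were in the first library and on the main tag that these members share. Their ratios of high to low glucose were 7.58 (exact 95% binomial interval 2.56 to 37.1), 12.8 (4.33 to 62.2) and 6.38 (2.15 to 31.2). These intervals cover at most counting error, and with shared tags they are not independent of each other. The calls of chr12_10397 and chrY_KL568149v1_random_42234 were each lost in 4 of 13 alternatives, and that of chrX_41008 in 1 of 14. For chr12_10397 the adjusted p was 0.0615 with the replicate block, 0.0713 and 0.0604 without the second or the third low glucose library, and 0.147 on its most abundant sequence only.

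Of the remaining named members, chr15_14491, chr10_7031, chr17_16953 and chr18_18152 were lower in high glucose. chr15_14491 had 59.1, 52.4 and 46.5 CPM against 164, 221 and 315 (-2.14, SE 0.30, adjusted p = 0.000881). chr10_7031, an end-mismatched member with a microRNA-sized tag, had 135, 93.8 and 144 CPM against 247, 248 and 315 (-1.12, SE 0.26, adjusted p = 0.00732; 0.0989 on its most abundant sequence only). Its main tag is shown for the mismatched T at its end:
chr10_7031 (G24T): tgcagactcctctggctgatgtgT
chr17_16953 had 96.5, 63.5 and 84.2 CPM against 172, 138 and 126 (-0.84, SE 0.28, adjusted p = 0.0333), and chr18_18152 had 264, 347 and 261 against 419, 400 and 540 (-0.63, SE 0.22, adjusted p = 0.0357). In neither did the groups overlap, but these calls were lost in 12 and 14 of the 18 alternatives run. chrX_40990 had 199, 126 and 218 CPM against 135, 228 and 324, which overlapped (-0.33, SE 0.36, adjusted p = 0.461). chr14_12654 had 54.0, 48.7 and 88.2 CPM in high glucose and was listed at 0 in low glucose, where its mean level would give 7.07 to 9.23 reads. Outside the named members, chr12_9562, chr3_24996, chr19_18623 and chr6_31595 were also called lower, with log2 fold changes of -3.74, -3.70, -2.95 and -2.68 at under 50 counts on average in each group. chr14_13311 was called higher on 2 low glucose counts (ratio 6.67, exact 95% binomial interval 1.81 to 55.7), and chr5_31209 was called higher and listed at 0 in low glucose.

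In 3 of 5 abundant members examined, the starts of the tags stood apart between the libraries of the 2 groups at the places given. In chr7_34122 tags starting at place 55 made up 23.0%, 37.3% and 25.5% of its counts in high glucose and 6.07%, 6.27% and 8.97% in low glucose. Tags starting at place 50 made up 10.4%, 8.84% and 9.09% against 20.6%, 19.5% and 16.4%. In chr5_29402 tags from place 1 made up 36.8%, 38.1% and 36.7% against 51.7%, 53.8% and 40.6%, and tags from place 3 made up 27.1%, 26.0% and 27.6% against 14.9%, 15.7% and 21.2%. In chr4_27712 tags from place 1 made up 8.79%, 17.3% and 23.6% in high glucose and 80.0%, 80.2% and 69.7% in low glucose. The groups were separate at each of these 5 places, with the smallest exact two-sided permutation p of 0.1 (adjusted 0.127). These places were picked from several starts of these members, and the others were not tested. Among the others the groups overlapped at place 53 of chr7_34122 and place 2 of chr5_29402, and were separate at place 4 of chr5_29402. The groups overlapped in chr15_14730 at place 70 (60.4%, 65.3% and 68.1% against 51.9%, 28.6% and 60.9%), and in chr17_16803 at place 1 (75%, 91.7% and 89.2% against 100%, 100% and 90.9%). Tags starting after a fixed place can be listed as exact, so the starts bear on the exact shares of chr5_29402 and chr4_27712. In chr7_34122 the starts at 50 and 55 both lie before the fixed place 60, and tags from either start cover it.

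**Figure D5:**
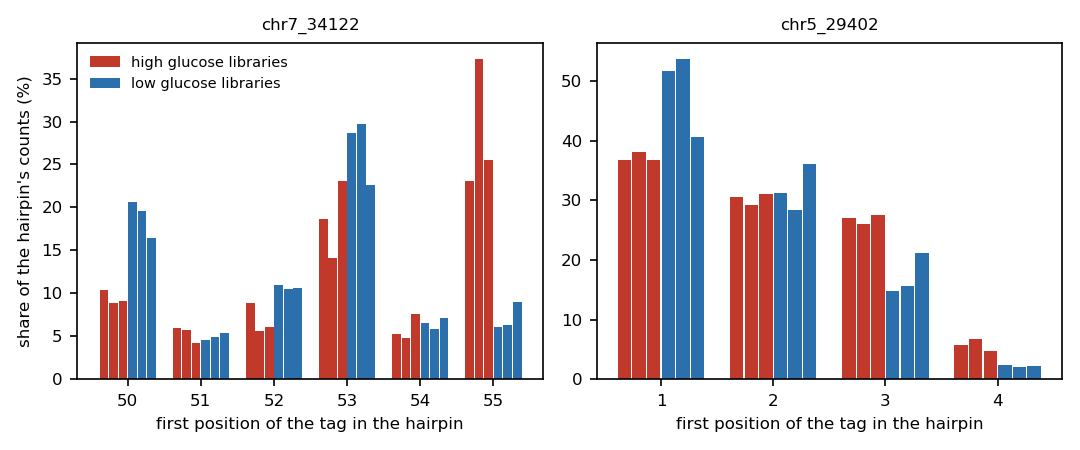
Share (%) of the counts of chr7_34122 (left) and chr5_29402 (right) on tags by the first position of the tag in the hairpin, one bar for each of 3 high glucose (red) and 3 low glucose (blue) libraries. High glucose libraries were higher at place 55 of chr7_34122 and place 3 of chr5_29402, and low glucose libraries at places 50 and 1.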

How the data were processed

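Titles gave the group and replicate number of each small RNA library. Per the file headers, the deposited values are raw counts of each distinct sequence on each hairpin, beside its length, place and mismatch. Novoalign 3.02.12 and cutadapt 1.9.3 appear in the submitters' processing notes without roles. Neither the tool that predicted the hairpins nor the genome build is given in the sources used here. Listed sequences were 16 to 40 nt with at least 2 reads. An entry with an empty mismatch field was taken as exact; 0.119% of exact counts were on sequences with an N. Names with the same hairpin sequence were counted as 1 hairpin (540 predicted names, 512 hairpins).

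Counts were summed per hairpin and tested with edgeR 4.0.16 in R 4.3.3 (quasi-likelihood, TMM, filterByExpr with a minimum count of 10, Benjamini-Hochberg adjustment over all tested hairpins at 0.05). Standard errors were derived from the log2 fold change and the F statistic. Python 3.11.15, pandas 2.3.3, matplotlib 3.10.9 and RNAfold 2.7.2 were used otherwise, and DESeq2 1.42.0 as an alternative. The fit was tested on simulated data. MicroRNA hairpins and promoter windows came from RefSeq (GRCr8). Named members were the 15 most abundant, up to 8 called rises and 8 falls with separate groups and a mean of 50 counts in a group, and those beside the threshold; any other member described was chosen after its values were seen. The members and lists were chosen with earlier results of these data known. Replicates of a group differed beyond counting noise. Nothing says that they were separate cultures, and the spread behind the p-values may therefore be technical. Reads carry no molecular identifiers here, so depth limits and intervals cover counting error only. The sequences of 2 tags are not reported here.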

Additional observations from a re-analysis of the deposited data

How the results depend on the processing

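No called named member changed direction. Of 370 pairs of a named member and an alternative, over 22 members, 318 kept direction and side of the threshold, 44 lost a call, 4 gained one and 4 turned the sign of a member that had not passed. These were chr11_8278 (0.21 in the main test), at -0.044 without the second high glucose library (leaving out 1 library gave -0.044 to 0.385), -0.16 on thinned counts and -0.18 on its most abundant sequence only, and chrX_40990 (-0.33), at 0.066 without the third low glucose library (-0.533 to 0.066). The cause was not tested. Members called higher, 13 in the main test, were 6 on thinned counts (20 tested), 7 on the most abundant sequence only, 8 without shared sequences, and 27 when the threshold was less than 75% exact. Leaving out 1 library at a time gave 6 to 16 members higher (6 without the first or the second high glucose library, 7 without the third) and 8 to 12 lower, and over all hairpins 77 to 100 higher and 47 to 66 lower (47 without the second low glucose library). Without shared sequences 46 hairpins were lower. The cause was not tested, apart from fewer hairpins tested on thinned counts. Without the most abundant member the low glucose share of library counts was 1.76%. Scaling on annotated hairpins only moved the median log2 fold change of all hairpins by 0.31 and gave 116 higher and 54 lower (68.2% of calls higher against 58.2%), with 15 and 9 members. The labels number the replicates alike, but same-numbered libraries did not deviate together (correlations 0.003, -0.003 and -0.023). With the replicate number as a block, 84 hairpins were higher and 58 lower, with 10 members each way. The number of members was 116 at less than 25% exact, 190 at less than 75% and 146 by the mean of the group shares. Depth limits the low glucose group, where a member near 10 CPM gives about 1 read and single reads are not listed.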
